A study of Drosophila melanogaster with 6 samples.

Results

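The mitochondrial ribosomal protein genes of Drosophila melanogaster were described here in libraries made from adult progeny. The genes were chosen by name, as every row of the expression table whose symbol starts with mRpL or mRpS, with earlier results of these data known. This gave 73 of 15010 rows, with 47 genes named mRpL, for the large subunit, and 26 named mRpS, for the small subunit. The subunit was read from the symbol alone. In mammals the proteins of the mRpS18A and mRpS30 counterparts sit in the large subunit despite their names, so counts and sums by subunit are also given with these genes moved there. The study asked how metabolic stress in the mother, imposed by lowering insulin signalling in the female germline, relates to gene expression in the gut of the offspring. The InR-DN group held 3 libraries from progeny of MTD-GAL4/InR-DN mothers. The control group held 3 libraries from progeny of MTD-GAL4/+ mothers. In both groups the mothers were crossed to wild-type Oregon R males. InR-DN is a dominant-negative form of the insulin receptor, which competes with the normal receptor and dampens the pathway. MTD-GAL4 is a set of transgenes that drives expression in the female germline, so the treatment was given to the mother's germ cells and not to the gut that was sampled. Mothers of both groups carried the driver, and the labels do not say which transgenes each progeny animal inherited. The labels call the InR-DN progeny reprogrammed, give no sex or exact age, and leave unsaid if each library of a group had its own animals or its own cross. The p-values below therefore measure the spread between these libraries only, which may be technical.

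Mitochondria carry their own ribosomes, which translate the few proteins encoded by mitochondrial DNA, all of them parts of the respiratory chain and the ATP synthase. The ribosomal RNAs of this ribosome come from the mitochondrial genome, whereas its proteins are encoded in the nucleus, made in the cytosol and imported. Many of these proteins descend from bacterial ribosomal proteins, and others were added in the course of mitochondrial evolution. The large subunit joins amino acids at the peptidyl transferase centre and releases the chain through an exit tunnel, and the small subunit holds the mRNA and reads its codons.

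Levels are given in TPM, a unit of relative transcript abundance. It divides a gene's reads by its length and scales each library to the same total. Genes and libraries are thus set side by side as shares, which also depend on the other genes of a library. Reads recovered from the TPM values came to 35412162, 42425720 and 33935327 in InR-DN replicates 1 to 3, and to 35847257, 45049807 and 45161700 in control replicates 1 to 3. Each mitochondrial ribosomal protein gene had between 261 and 5335 reads per library, with a median of 1121. InR itself averaged 20.5 ± 2.11 TPM in InR-DN libraries and 21.4 ± 0.998 TPM in control libraries (SD, n = 3 each). This value does not check the labels. The mutant receptor was driven in the mothers' germline, and the transgenes that each progeny animal inherited are not given. Enterocyte digestive genes summed to 14516, 18452 and 21135 TPM in InR-DN replicates 1 to 3, against 20131, 21620 and 20498 TPM in the controls, but the libraries also held markers of other tissues although they are labelled intestine. Photoreceptor markers summed to 3520, 4832 and 4162 TPM in InR-DN libraries and to 4305, 4468 and 3997 TPM in controls. Oenocyte markers summed to 6764, 9310 and 7435 TPM in InR-DN libraries and to 10625, 10014 and 9345 TPM in controls. Oocyte and nurse cell markers summed to 1243, 1091 and 1062 TPM in InR-DN libraries and to 1076, 1081 and 1178 TPM in controls. No marker of these lists was at 0 in any library, and the part of other tissues in the results below was not tested. In such mixed samples, fewer cells of a type and less RNA per cell cannot be told apart.

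All 73 genes were expressed in every library, in a narrow band of levels. Single-library values lay between 25.7 and 178 TPM. The mean over the 6 libraries ranged 5.62-fold, and 53 of 73 genes lay between 50 and 100 TPM. The median gene stood at 67.5 TPM, with quartiles of 59.0 and 82.9 TPM. The SD of log2 mean TPM was 0.48 over the mitochondrial genes, against 2.62 over the 91 rows of cytosolic ribosomal protein genes and 2.02 over all genes tested. The value of 2.62 includes rows near 0, since only 87 of the 91 were among the genes tested. Mean levels of the 91 went down to 0.0488 TPM, while their quartiles were 1227 and 2914 TPM. The cytosolic genes, which encode the ribosome of the main cell body, had a median of 2320 TPM per gene. The median was 65.6 TPM for mRpL genes and 73.4 TPM for mRpS genes. The summed TPM of the mRpS genes divided by that of the mRpL genes was 0.638 ± 0.00679 in InR-DN libraries and 0.646 ± 0.00217 in control libraries (SD, n = 3 each). With mRpS18A and mRpS30 moved to the large subunit, the ratio was 0.537 ± 0.00654 in InR-DN libraries and 0.543 ± 0.00156 in control libraries.

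**Figure D1:**
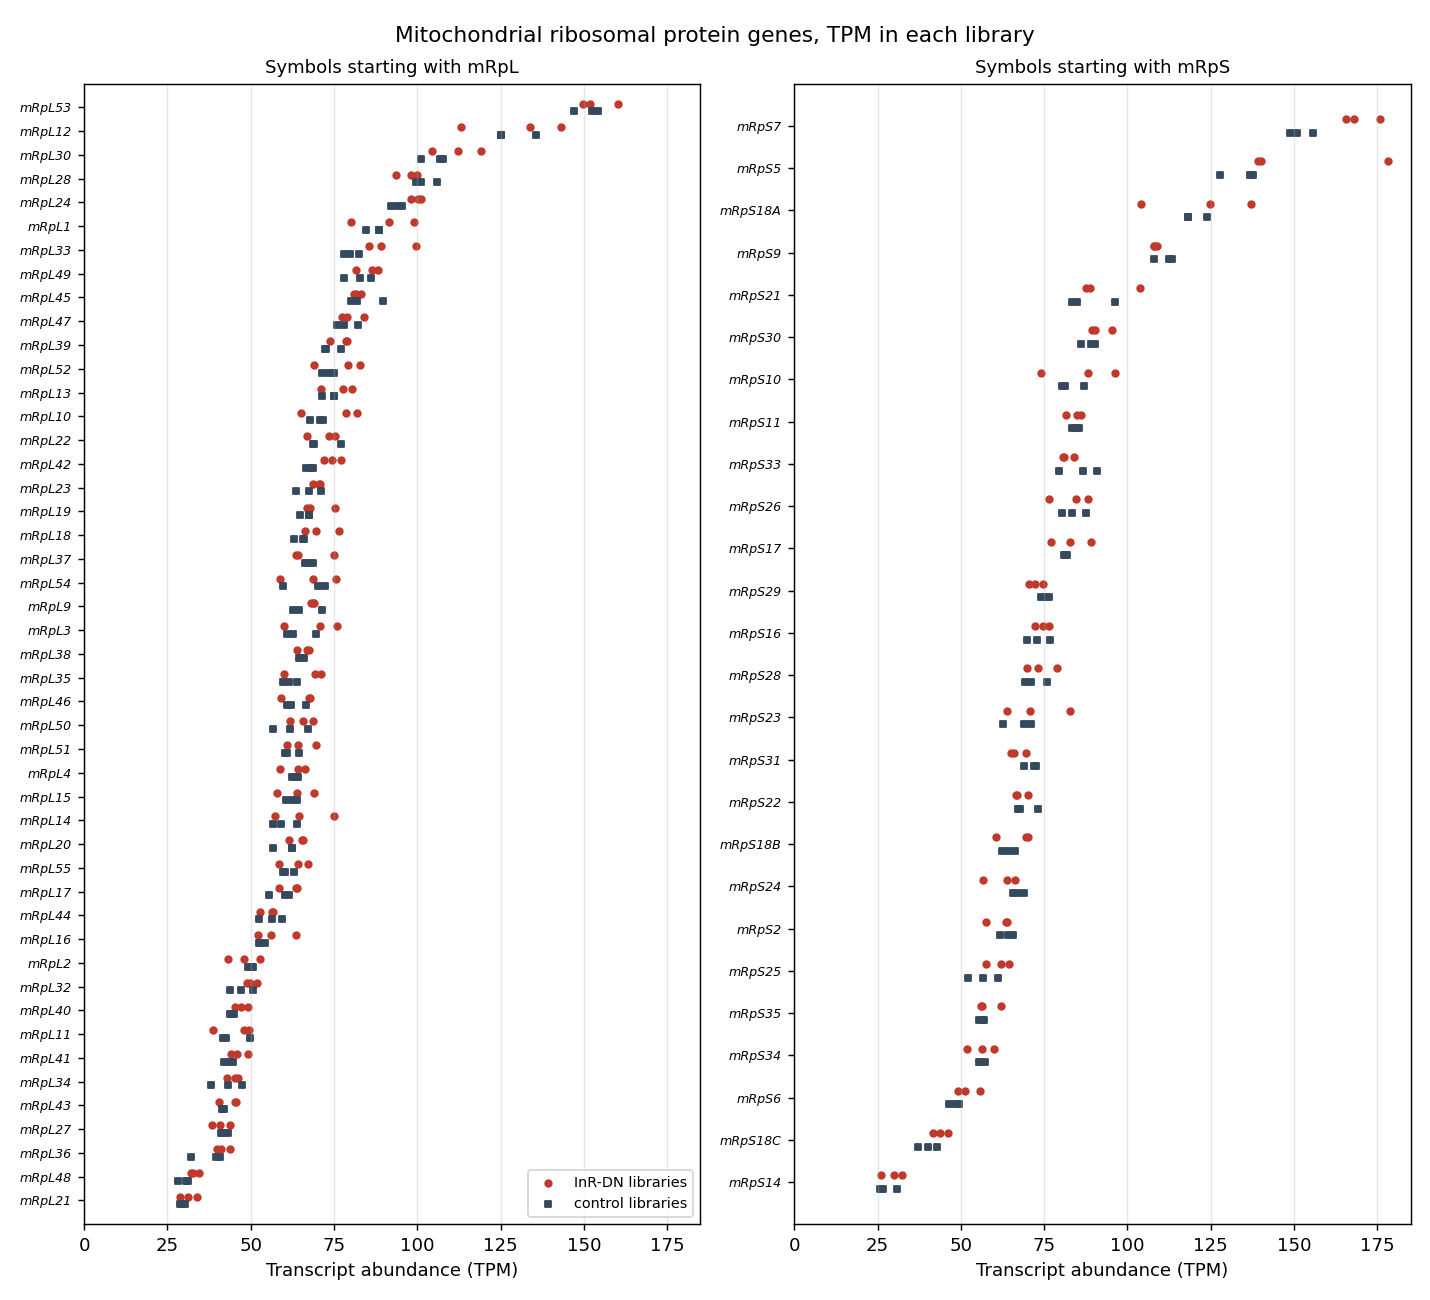
Level of each mitochondrial ribosomal protein gene in TPM, plotted for every library, with InR-DN and control libraries in separate colours and the genes of each symbol prefix ordered by mean level. Values lie between 25.7 and 178 TPM, and the libraries of the 2 groups overlap for most genes.

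The most abundant mRpS genes were mRpS7, mRpS5 and mRpS18A. The protein encoded by mRpS7 is the homologue of a bacterial protein that binds the ribosomal RNA of the small subunit's head. It was the most abundant transcript of the 73, at 176, 168 and 166 TPM in InR-DN replicates 1 to 3, against 156, 151 and 149 TPM in control replicates 1 to 3. The InR-DN libraries were all above the controls. The gene mRpS5, whose bacterial homologue lines the channel where mRNA enters, had 178, 139 and 140.1 TPM in InR-DN libraries and 138, 128 and 137 TPM in controls. InR-DN replicate 1 stood apart from the other 5 libraries in this gene. The transcript of mRpS18A, whose mammalian counterpart belongs to the large subunit and which has the relatives mRpS18B and mRpS18C in flies, had 137, 104 and 125 TPM in InR-DN libraries and 118, 118 and 124 TPM in controls, and InR-DN replicate 2 was the lowest of all. Both relatives were less abundant, with mRpS18B at 69.6, 60.7 and 70.2 TPM in InR-DN libraries and 64.1, 62.2 and 66.4 TPM in controls. The transcript of mRpS18C had 46.2, 41.5 and 43.7 TPM in InR-DN libraries and 42.9, 37.0 and 40.1 TPM in controls. The groups overlapped for all 3 genes.

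The least abundant mRpS genes were mRpS14, mRpS18C and mRpS6. The transcript of mRpS14, a protein of the subunit head in bacteria, was the lowest of the 73, at 29.9, 26.1 and 32.3 TPM in InR-DN libraries against 25.7, 26.8 and 31.0 TPM in controls. Its exons share bases with a same-strand gene, CG32533, and reads of the 2 genes could not be told apart there. For mRpS6, levels were 55.8, 51.2 and 49.1 TPM in InR-DN libraries and 46.4, 49.5 and 48.6 TPM in controls. Both genes overlapped between groups.

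Among mRpL genes, mRpL53, mRpL12 and mRpL30 were the most abundant. The mitochondria-specific gene mRpL53 had 152, 149.8 and 160.2 TPM in InR-DN libraries and 153, 154 and 147 TPM in controls, and it shares part of its exons with the same-strand gene CG33155. The transcript of mRpL12, the stalk protein that recruits translation factors to the ribosome in bacteria, had 143, 113 and 134 TPM in InR-DN libraries and 125, 125 and 136 TPM in controls. InR-DN replicate 1 was the highest and InR-DN replicate 2 the lowest of the 6, so that the controls lay inside the InR-DN range. The gene mRpL30, a homologue of a bacterial large-subunit protein, had 119, 105 and 112 TPM in InR-DN libraries and 108, 101 and 107 TPM in controls. The 3 least abundant genes were mRpL21, mRpL48 and mRpL36. Levels of mRpL21 were 33.9, 28.9 and 31.3 TPM in InR-DN libraries against 28.7, 29.2 and 30.4 TPM in controls. Levels of mRpL36, which encodes a very small protein in bacteria, were 39.8, 43.9 and 41.0 TPM in InR-DN libraries against 40.7, 32.0 and 39.6 TPM in controls, and control replicate 2 was the lowest of the 6.

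Among proteins of the stalk and its base, mRpL10, which anchors the stalk in bacteria, had 81.8, 65.1 and 78.7 TPM in InR-DN libraries and 70.7, 67.9 and 71.8 TPM in controls. The base protein mRpL11 had 49.4, 38.8 and 47.9 TPM in InR-DN libraries and 41.5, 42.6 and 49.9 TPM in controls. In both, as in mRpL12, InR-DN replicate 2 was the lowest library. The 3 genes had unequal transcript levels, with mRpL12 highest, mRpL10 next and mRpL11 lowest in each of the 6 libraries.

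Of the proteins that in bacteria sit next to the peptidyl transferase centre, mRpL2 had 43.0, 52.7 and 48.0 TPM in InR-DN libraries and 50.04, 50.7 and 49.3 TPM in controls. The other, mRpL3, had 75.8, 60.0 and 70.9 TPM in InR-DN libraries and 61.0, 62.7 and 69.6 TPM in controls. InR-DN replicate 1 was the lowest library for mRpL2 and the highest for mRpL3. Around the exit tunnel, mRpL23 had 70.4, 68.8 and 70.9 TPM in InR-DN libraries and 67.4, 63.6 and 71.1 TPM in controls. The tunnel protein mRpL45, which in mammals also contacts the inner membrane, had 81.7, 81.0 and 83.1 TPM in InR-DN libraries and 81.8, 89.7 and 80.0 TPM in controls. The gene mRpL44, whose mammalian protein has a fold related to RNase III, had 56.3, 56.8 and 52.7 TPM in InR-DN libraries and 52.4, 56.4 and 59.5 TPM in controls. In none of these 5 genes did the groups separate.

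Among other proteins of the small subunit, mRpS9, which in bacteria reaches towards the tRNA that holds the growing chain, had 108, 109 and 108 TPM in InR-DN libraries and 113, 113 and 108 TPM in controls. The platform protein mRpS11 had 86.2, 81.5 and 84.8 TPM in InR-DN libraries and 84.6, 83.4 and 85.6 TPM in controls. The mitochondria-specific mRpS35 had 56.0, 56.2 and 62.1 TPM in InR-DN libraries and 56.6, 56.9 and 55.5 TPM in controls. The groups overlapped in each of these 3 genes.

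No mitochondrial ribosomal protein gene passed the test between groups. In limma over the 10816 genes that reached 1 TPM in 3 or more libraries, 0 of 73 had an adjusted p under 0.05, and the smallest adjusted p among them was 1.00. The background was also 0%, since no gene of the 10816 passed. At an unadjusted p under 0.05, 2 of the 73 (2.74%) were higher in InR-DN libraries and 0 were lower, against 1.13% higher and 2.02% lower over all genes tested. A limma voom fit on the recovered reads, chosen after seeing the data, also called 0 of the 73, and it had 1 at an unadjusted p under 0.05. Of all 11462 genes in that fit, 111 were higher and 243 lower at that p. With 3 against 3 libraries, the smallest exact permutation p for a single gene is 0.1.

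The differences were small, and most were positive. The log2 fold change of InR-DN over control ran from -0.11 (mRpS24) to 0.19 (mRpL33), and 14 of the 73 lay beyond 0.1 in size. The median was 0.05 over the 73 genes and 0.01 over all genes tested. The InR-DN mean was the higher in 56 genes (76.7%) and the lower in 17, where the background of genes with a higher InR-DN mean was 54.6%. All 95% intervals lay between -0.30 and 0.43 on the log2 scale, which corresponds to 0.811-fold and 1.35-fold. Summed over the 73 genes, the level was 5597, 5039 and 5350 TPM in InR-DN replicates 1 to 3, and 5136, 5062 and 5259 TPM in control replicates 1 to 3. InR-DN replicate 2 had the lowest sum of the 6 libraries, and the other InR-DN libraries had the highest. The means were 5329 ± 280 TPM in InR-DN libraries and 5153 ± 99.6 TPM in control libraries (SD, n = 3 each), and their difference was smaller than the SD of the InR-DN libraries.

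**Figure D2:**
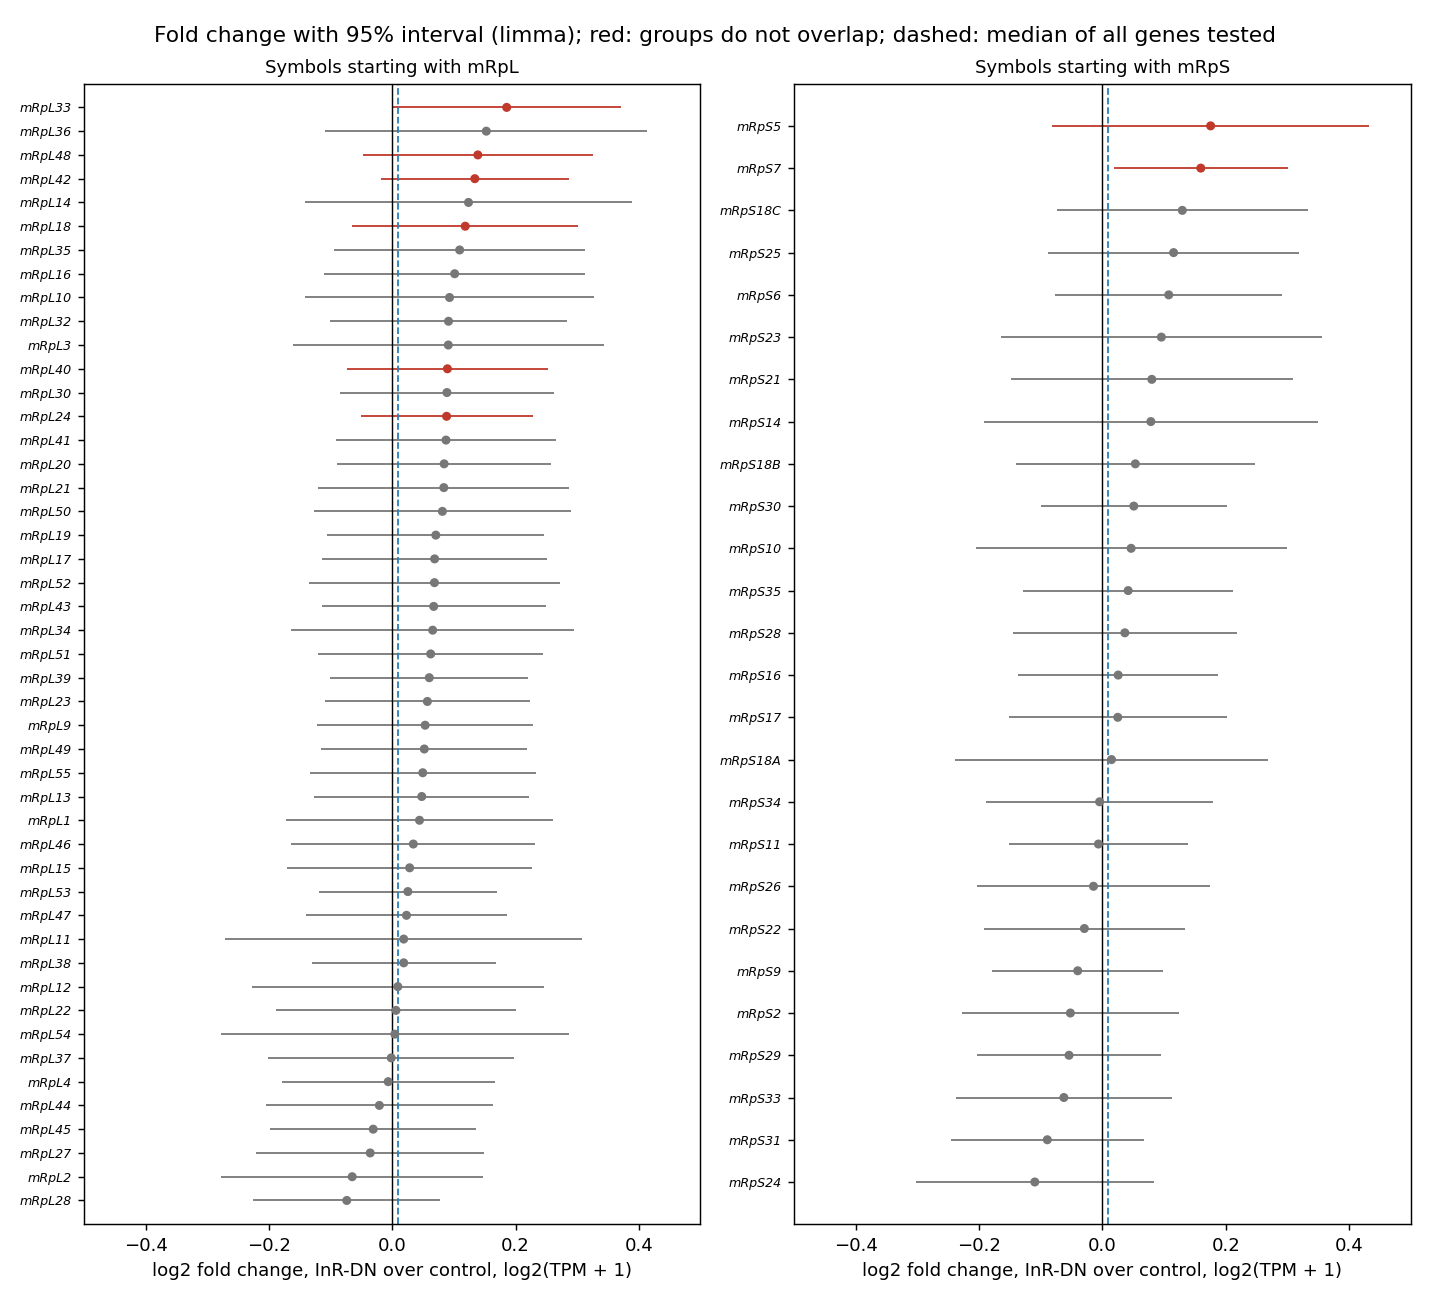
Log2 fold change of InR-DN over control for each of the 73 genes, with its 95% interval from limma, in order of size within each symbol prefix, with the 8 genes whose groups do not overlap in red and the median of all genes tested (0.01) dashed. Points run from -0.11 to 0.19, 56 lie above 0, and the intervals of all but 2 genes, mRpS7 and mRpL33, include 0.

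In 8 genes all 3 InR-DN libraries lay above all 3 controls, and in 0 genes all lay below. This is 10.96% and 0% of the 73, against 2.58% above and 3.78% below over all genes tested. The split depended on the scaling. It was 8 above and 4 below after quantile normalization (background 2.75% and 4.03%), and 14 above and 2 below after median-of-ratios rescaling (background 2.82% and 3.42%). The 8 were mRpS7 and mRpS5 of the small subunit and mRpL18, mRpL24, mRpL33, mRpL40, mRpL42 and mRpL48 of the large subunit. For mRpS7 (FBgn0032236, chromosome 2L, 10386662 to 10387652 of BDGP6.54, plus strand), whose library values stand above, the mean was 170 ± 5.397 TPM in InR-DN libraries and 152 ± 3.65 TPM in controls (SD, n = 3 each). Its log2 fold change was 0.16 (SE 0.06), or 1.12-fold, with an unadjusted limma p of 0.0322 and an adjusted p of 1.00. The gene mRpL33 (FBgn0040907, chromosome X, 4321764 to 4322231, minus strand), which encodes a small protein with a bacterial homologue, had 99.5, 85.6 and 89.3 TPM in InR-DN libraries against 82.4, 79.9 and 78.1 TPM in controls. The lowest InR-DN library lay close above the highest control. Its log2 fold change was 0.19 (SE 0.08), with an unadjusted limma p of 0.0495 and an adjusted p of 1.00. For mRpS5 (FBgn0287187, chromosome 3L, 24537236 to 24543534, plus strand) the log2 fold change was 0.18 (SE 0.11), and it was 0.06 without InR-DN replicate 1. Its lowest InR-DN library, replicate 2, also lay close above its highest control, replicate 1.

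The transcript of mRpL42, a mitochondria-specific protein, was at 77.2, 71.9 and 74.3 TPM in InR-DN libraries and 68.0, 68.8 and 66.5 TPM in controls, a log2 difference of 0.13. That of mRpL18, whose bacterial homologue belongs to the central protuberance of the large subunit, was at 76.5, 66.2 and 69.7 TPM in InR-DN libraries and 65.8, 63.1 and 66.2 TPM in controls. In mRpL18, InR-DN replicate 2 and control replicate 3 nearly coincided. The exit-tunnel gene mRpL24 was at 98.0, 100.3 and 101 TPM in InR-DN libraries and 94.1, 95.3 and 92.2 TPM in controls, the smallest spread within groups of the 73. The mitochondria-specific mRpL40 was at 47.1, 45.2 and 49.1 TPM in InR-DN libraries and 43.6, 44.1 and 44.9 TPM in controls. Here too, InR-DN replicate 2 lay close above control replicate 3. The mitochondria-specific mRpL48 was at 34.5, 32.6 and 32.0 TPM in InR-DN libraries and 31.0, 28.2 and 30.6 TPM in controls. The log2 differences of these 4 lay between 0.09 and 0.14, and none passed the test. Exons of mRpL18, mRpL24, mRpL42 and mRpL48 overlap those of a gene on the opposite strand (ox, synr, Cdc2rk and frtz). No source used here states if the counting was stranded, so the reads of such a pair could not be told apart. Exons of mRpS7, mRpS5, mRpL33 and mRpL40 overlap no other gene.

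In the other direction, the 4 genes with the smallest unadjusted p were mRpS31, mRpS24, mRpL28 and mRpS29, and their groups overlapped. The mitochondria-specific mRpS31 had 69.5, 65.1 and 65.9 TPM in InR-DN libraries and 68.9, 72.4 and 72.1 TPM in controls, a log2 difference of -0.09. The gene mRpS24, whose protein corresponds to a bacterial protein at the mRNA entry, had 64.0, 56.6 and 66.2 TPM in InR-DN libraries and 65.5, 66.7 and 69.1 TPM in controls. InR-DN replicate 2 was the lowest of the 6 in both. The large-subunit gene mRpL28 had 99.8, 98.1 and 93.5 TPM in InR-DN libraries and 99.6, 106 and 101 TPM in controls. The gene mRpS29, whose mammalian counterpart DAP3 binds GTP, had 74.8, 70.6 and 72.2 TPM in InR-DN libraries and 74.0, 75.4 and 76.6 TPM in controls. In mRpL28 and mRpS29, InR-DN replicate 1 reached the lower controls. Exons of all 4 genes overlap those of an opposite-strand gene (mib1, TBC1d7, Gmd and qkr58E-2), so reads of these pairs could not be told apart either.

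Levels of many of the 73 genes were high in InR-DN replicate 1 and low in InR-DN replicate 2, and the genes of the whole table leaned the same way in these libraries. Taking each gene's log2 level relative to its mean over all 6 libraries, the median over the 73 was 0.08, -0.04 and 0.04 in InR-DN replicates 1 to 3, and -0.02, -0.05 and 0.01 in control replicates 1 to 3. In InR-DN replicate 1, 64 genes (87.7%) lay above their own mean, against 59.6% of all genes tested, and 44 (60.3%) had their highest level, against 38.8%. In InR-DN replicate 2, 18 (24.7%) lay above their own mean, against 36.05% of all genes, and 29 (39.7%) had their lowest level, against 40.04%. InR-DN replicate 3 had 55 (75.3%) above their own mean, against 57.0% of all genes. The controls had 16, 14 and 42 (21.9%, 19.2% and 57.5%), against 47.5%, 46.1% and 50.8% of all genes. In InR-DN replicate 1, 51 genes (69.9%) were above all 3 controls, against 44.5% of all genes tested. The same count was 12 (16.4%) in InR-DN replicate 2, against 20.9% of all genes, and 41 (56.2%) in InR-DN replicate 3, against 24.4%. In InR-DN replicate 2, 30 (41.1%) were below all 3 controls, against 45.6% of all genes. The order replicate 1 above replicate 3 above replicate 2 was found in 43 of the 73. The share of all genes tested with this order was not counted. Their median deviations in InR-DN replicates 1 to 3, at 0.05, -0.07 and 0.02, had the same order.

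**Figure D3:**
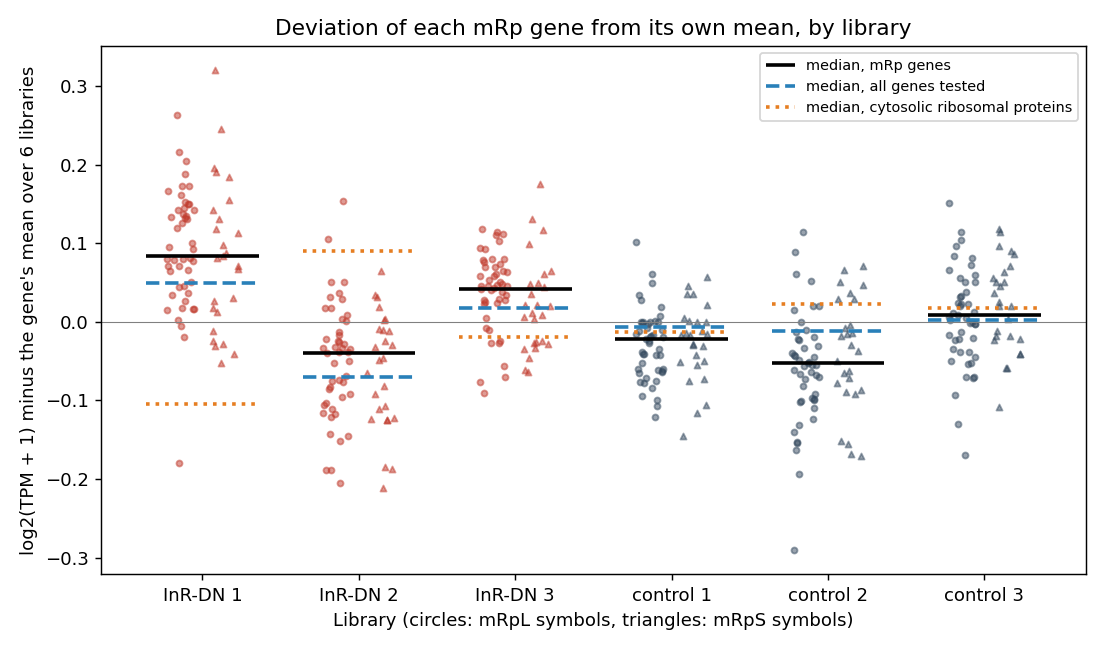
Log2 level of each of the 73 genes relative to its own mean over the 6 libraries, shown by library with the InR-DN libraries left of the controls, beside the medians of all genes tested and of the cytosolic ribosomal protein genes. The median of the 73 is 0.08, -0.04 and 0.04 in InR-DN replicates 1 to 3 and between -0.05 and 0.01 in the controls, and the cytosolic genes lie on the other side of 0 in InR-DN replicates 1 and 2.

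The other genes of the libraries moved as well. The same median over all genes tested was 0.05, -0.07 and 0.02 in InR-DN replicates 1 to 3, against -0.01, -0.01 and 0.00 in control replicates 1 to 3. For cytosolic ribosomal protein genes it was -0.10, 0.09 and -0.02 in InR-DN libraries and -0.01, 0.02 and 0.02 in controls. Those genes held between 19.2% and 21.6% of all TPM, and they summed to 192485, 215966 and 200488 TPM in InR-DN libraries against 201322, 204921 and 204767 TPM in controls. TPM has a fixed total in each library, so a larger share of one gene set leaves less for the rest, and the part of this in the levels of the mitochondrial genes was not tested. Flight muscle markers were also highest in InR-DN replicate 2, at 217 TPM beside 154 and 157 TPM in the other InR-DN libraries, against 178, 154 and 149 TPM in controls. Neuron markers were at 76.8, 83.1 and 75.4 TPM in InR-DN libraries and 86.3, 83.8 and 74.6 TPM in controls. Without InR-DN replicate 2, 36 of the 73 genes lay above all controls and 3 below (background 15.9% and 10.8%), and the median log2 fold change was 0.10, against 0.04 over all genes tested. Without InR-DN replicate 1, 9 lay above and 5 below (background 5.94% and 8.64%), the InR-DN mean was the higher in 45 genes (61.6%, background 38.9%), and the median was 0.02, against -0.03 over all genes tested.

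The InR-DN mean was the higher in 40 of the 47 mRpL genes (median log2 fold change 0.06) and in 16 of the 26 mRpS genes (0.03). With mRpS18A and mRpS30 moved to the large subunit, it was the higher in 42 of 49 and in 14 of 24. The mRpL genes summed to 3253 ± 168 TPM in InR-DN libraries and 3131 ± 59.1 TPM in controls (SD, n = 3 each). The mRpS genes summed to 2076 ± 113 TPM in InR-DN libraries and 2021 ± 40.8 TPM in controls (SD, n = 3 each). Among the 46 genes with a bacterial homologue, 38 had the higher InR-DN mean, with a median of 0.06. Among the 27 mitochondria-specific genes, 18 did, with a median of 0.04. The 10 mitochondria-specific mRpS genes divided into 4 higher and 6 lower, with a median of -0.01, and without mRpS30 into 3 higher and 6 lower. None of these subsets was tested against another.

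By chromosome arm, 12 genes lie on 2L, 12 on 2R, 17 on 3L, 21 on 3R and 11 on the X. All 11 genes on the X had the higher InR-DN mean, with a median log2 fold change of 0.09. The autosomal genes divided into 45 higher and 17 lower, with a median of 0.05. Over all tested genes, 50.5% of the 1761 on the X and 55.2% of the 8855 on chromosomes 2 and 3 had the higher InR-DN mean, with medians of 0.00 and 0.01. The X genes include mRpL3, mRpL30, mRpL33 and mRpS14, and 1 of the 11, mRpL33, had non-overlapping groups. Of the 1761 tested genes on the X, 42 had all InR-DN libraries above all controls and 61 had them below. The labels give no sex for the animals, and the part of sex in these values was not tested.

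The genes are compact. Their exons add up to between 327 bases (mRpL34) and 2078 bases (mRpS30), with a median of 783, against 1927 for all genes tested. In 9 of them the exons form 1 unbroken block, and none has more than 7. For 42 genes, exons overlap those of an opposite-strand gene, and 30 of these 42 had the higher InR-DN mean (median 0.06). Of the 30 genes without any overlap, 25 did (median 0.05). The 35 genes shorter than the median divided into 31 higher and 4 lower (median 0.07), and the 38 others into 25 higher and 13 lower (median 0.04). Across the 73 genes, Spearman's rho between the log2 fold change and exon length was -0.32, and between the log2 fold change and mean TPM it was -0.19. Across all genes tested, rho with exon length was -0.10. These values are descriptions over genes that share the same 6 libraries.

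Replicates of these genes lay close together. The SD of log2 values within groups had a median of 0.0760 over the 73 genes, against 0.145 over all genes tested, and 68 of the 73 were below that value for all genes. It ran from 0.0237 in mRpL24 to 0.165 in mRpL11. Close medians were found for cytosolic ribosomal protein genes (0.0786) and genes of mitochondrial DNA maintenance and expression (0.0810). Larger ones were found for mitochondrial translation factors (0.115), genes for mitochondrial aminoacyl-tRNA synthesis (0.125) and the pair tko and bonsai (0.135). All genes tested also had a lower median level, 34.0 TPM against 67.5 TPM, and the part of level in the SD was not tested. Counting alone, from the recovered reads, would give between 0.0207 and 0.0849, with a median of 0.0427, and in 66 of the 73 genes the observed SD was the larger. These figures cover counting error only. With the library median of the 73 genes taken out, the median SD was 0.0646. The standard error of a log2 fold change lay between 0.06 and 0.12.

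**Figure D4:**
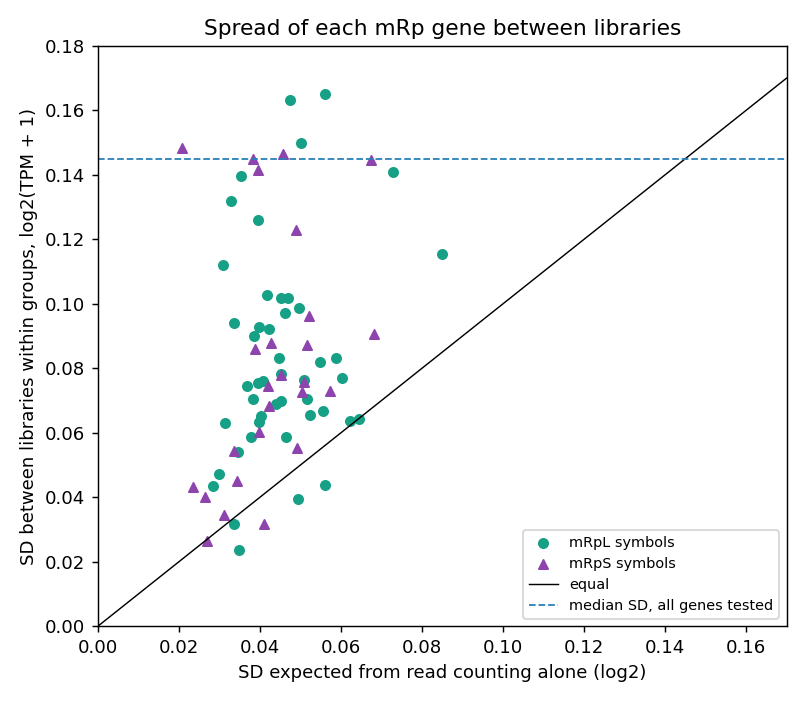
SD of log2(TPM + 1) within groups for each of the 73 genes against the SD that counting the recovered reads would give, with the line of equal values and the median over all genes tested (0.145) dashed. In 66 genes the observed SD is the larger, and the values run from 0.0237 to 0.165 where counting would give 0.0207 to 0.0849.

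Other genes of mitochondrial translation were given from lists, and none of their members passed the test at an adjusted p of 0.05 in limma. Among these, tko and bonsai encode small-subunit proteins of the mitochondrial ribosome that carry older names. The gene tko had 42.8, 32.3 and 37.4 TPM in InR-DN libraries and 34.7, 35.2 and 37.3 TPM in controls. The gene bonsai had 118, 96.7 and 108 TPM in InR-DN libraries and 104, 96.0 and 112 TPM in controls. In both, InR-DN replicate 1 was the highest library. The 9 mitochondrial translation factors divided into 4 with the higher and 5 with the lower InR-DN mean, with a median log2 fold change of -0.00 and 0 at an unadjusted p under 0.05. The 18 genes for mitochondrial aminoacyl-tRNA synthesis divided into 14 higher and 4 lower, with a median of 0.04 and a range from -0.26 to 0.10. The 11 genes of mitochondrial DNA maintenance and expression divided into 6 higher and 5 lower, with a median of 0.00. In the last 2 lists the lowest log2 fold change was that of CG33649 and DNApol-gamma35, which had identical values in every library and so count as 1 signal. The 87 tested genes of the cytosolic ribosome divided into 27 higher and 60 lower, with a median of -0.02 and 0 at an unadjusted p under 0.05. No row for a gene encoded by mitochondrial DNA was used here, so the products of the mitochondrial ribosome were not measured.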

How the data were processed

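Polyadenylated RNA of adult progeny was sequenced, and the authors deposited TPM values for all 6 libraries, per the file headers. Per the labels' protocols, RNA came from a Trizol extraction and an Illumina kit served for the libraries. Per the submitters' processing notes, TopHat and edgeR were used. For their roles, the genome build, the annotation, the read counter and strand use: not given in the sources used here. Symbols were matched to BDGP6.54 (11527 current, 3330 older, 153 unmatched), and all 73 genes matched. TPM times exon length gave whole reads, within 0.01 read, for 14103 of 14857 genes (94.9%) and for 72 of the 73. The length of mRpS16 was solved. Depths are those of the recovered reads.

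The test was limma 3.58.1 (R 4.3.3) fitted to log2(TPM + 1), which understates changes of low genes, with the variance trend on, for genes reaching 1 TPM in 3 or more libraries and Benjamini-Hochberg adjustment at 0.05. It was tested on simulated data, with added changes far larger than those of the 73 genes. That check does not show if changes as small as theirs would be found. The list was described by counts and medians only. The genes and lists were chosen with earlier results of these data known. Genes given in full were the 3 most and 3 least abundant of each prefix (mRpL, mRpS), those with non-overlapping groups, the 4 smallest p per direction and members with a fixed role in the ribosome. Alternatives were pseudocounts, filters, rescalings, moderation settings, a replicate block, each library left out and voom on recovered reads.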

Additional observations from a re-analysis of the deposited data

How the results depend on the processing

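In each of the 16 alternatives, 0 of the 32 genes given in full passed an adjusted p of 0.05, and the smallest adjusted p was 0.537. Of the 32, 23 kept their direction in all alternatives. The count of genes of the whole table past the adjusted p, 0 in the reported fit, was 1 with a pseudocount of 0.1, 1 with voom on recovered reads, and 0 to 3 when a library was left out (3 without control replicate 2). The count of mitochondrial ribosomal protein genes at an unadjusted p under 0.05, 2 as reported, was 1 with a pseudocount of 0.1, with a filter of 5 TPM, with robust moderation and with voom, 0 without the trend and with the replicate block, and 0 to 5 when a library was left out (5 without InR-DN replicate 2). Without InR-DN replicate 2, 549 of all 10816 genes tested were higher and 388 lower at that p. The counts higher and lower were 123 and 211 with the pseudocount of 0.1, and 123 and 225 with robust moderation. They were 131 and 246 without the trend, and 132 and 230 with the replicate block. They were 82 and 138 of 9039 genes with the filter of 5 TPM, and 111 and 243 of 11462 with voom. The count with a lower InR-DN mean, 17 as reported, ran from 11 without InR-DN replicate 2 to 28 without InR-DN replicate 1. The count with non-overlapping groups, 8 as reported, was 16 (14 above and 2 below the controls) after median-of-ratios rescaling, 12 with quantile normalization (8 and 4), 12 with voom (10 and 2) and 9 to 39 when a library was left out (39 without InR-DN replicate 2), where fewer libraries make separation more frequent. Over all genes in the voom fit, 2.84% lay above and 3.80% below. With a library left out, between 4.95% and 15.9% of all genes tested lay above and between 5.22% and 11.9% below. The highest share above, 15.9%, was also without InR-DN replicate 2. The median log2 fold change, 0.05 as reported, ran from 0.02 to 0.10 over the left-out libraries. With quantile normalization it was 0.03 (all genes 0.00), and 50 of the 73 had the higher InR-DN mean (68.5%, background 50.9%). Counting mRpS18A and mRpS30 with the large subunit, chosen after seeing the data, moved the ratio of small to large summed TPM to 0.537 in InR-DN libraries and 0.543 in controls.

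Among the 32 genes given in full, quantile normalization turned the log2 fold change to -0.0162 in mRpL12, -0.00750 in mRpS18A and -0.00424 in mRpL11. Over all 73 genes, the count with a lower InR-DN mean was 17 as reported and 23 with quantile normalization. Leaving out a library gave ranges on both sides of 0 in 9 of the 32 genes given in full: -0.0633 to 0.106 in mRpL12, -0.0737 to 0.124 in mRpS18A, -0.0456 to 0.125 in mRpL11, -0.134 to 0.00819 in mRpL2, -0.0682 to 0.0218 in mRpL44, -0.0637 to 0.0185 in mRpL45, -0.0235 to 0.0164 in mRpS11, -0.00625 to 0.0675 in mRpS35 and -0.00328 to 0.0447 in mRpL53. The other genes of the 73 are not listed here. The cause of these changes was not tested. Same-numbered libraries of the groups had correlations of -0.41, -0.18 and -0.13 in their deviations from group means, so the numbers were not treated as pairs. With the replicate block, 0 genes of the table passed the adjusted p. Depth sets a floor on precision, since counting alone gives an SD of up to 0.0849 on the log2 scale in these genes.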
